A study of Mus musculus with 6 samples.

Results

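The 39 genes described here are genes of the interferon response and of antigen presentation: interferon receptors, the transcription factors they signal through, RNA sensors, interferon-stimulated effectors, MHC class I genes, the machinery that makes and loads peptides, and MHC class II genes. They were taken from a list of symbols and matched to the gene IDs of the deposited count tables, where each of the 39 had 1 ID among 53379. The study sequenced total RNA of mouse cerebral cortex with a library kit that preserves strand. It compared 3 wild type libraries (replicates 1, 3 and 4) with 3 Gtf2ird1-/- libraries (replicates 5, 6 and 7, called knockout below), all from C57BL/6 mice that were 2 months old. Gtf2ird1 encodes a transcription factor of the TFII-I family. The mutated part of the gene, the promoter or marker used to obtain the cells, and whether each library came from 1 animal or a pool are not stated in the labels. p-values therefore measure the spread between these libraries.

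Interferons are secreted proteins that bind receptors at the cell surface. Type I interferons signal through Ifnar1 and Ifnar2 to a complex that contains Stat2 and Irf9 and binds interferon-stimulated response elements (ISREs) near its target genes. Interferon gamma signals through Ifngr1 and Ifngr2, acts on genes with gamma-activated sites (GAS), and induces MHC genes. MHC class I molecules, a heavy chain with B2m, show peptides from inside almost any nucleated cell. MHC class II molecules show peptides from taken-up material on a few specialised cells. In the brain, microglia are the resident cells best known for responding to interferon.

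Gene counts per library ran from 13627501 to 30544144, so 3 counts corresponded to 0.0937 to 0.272 CPM (counts scaled to the size of the library). Library sizes were first multiplied by a TMM factor, which sets libraries to a common scale. The factor was 0.811 in wild type replicate 3 and 0.994 to 1.11 in the other libraries, so it raised the CPM of that replicate. The series title names Gad2-positive neurons. Microglia markers led the libraries, however: they summed to 25142 to 39137 CPM in wild type, against 24922 to 32172 CPM in knockout. The 10 GABAergic neuron markers summed to 234 to 779 and 547 to 1006 CPM. Csf1r, the receptor that microglia need to survive, was at 6637 to 10855 CPM, while the receptor kinase Erbb4, a marker of GABAergic neurons, was at 41.5 to 171 CPM. Wild type replicate 3 stood apart in its share of ribosomal RNA (17.5% of gene counts; knockout replicate 6 had 6.2% and no other library more than 1.51%), and wild type replicate 4 in its low MHC levels, described below. The targeted gene was counted over all of its exons and its mutated part is not stated, so its count was not used to check the labels.

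Short stretches upstream of 6 of the genes are printed below, with matches to fixed sequence patterns marked. They were taken from RefSeq (build GRCm38.p6), which had a 300-base window around the start of 30 of the 39 genes, and end before the first annotated exon base. They are written 5′ to 3′ on the strand of the gene, and capitals mark the ISRE core GAAANNGAAA or its reverse complement TTTCNNTTTC in the first 4 and CCAAT or its reverse complement ATTGG in the last 3; B2m carries both.
Isg15, a ubiquitin-like protein joined to other proteins, chr4:156200819-156200968, minus strand, with 3 overlapping cores: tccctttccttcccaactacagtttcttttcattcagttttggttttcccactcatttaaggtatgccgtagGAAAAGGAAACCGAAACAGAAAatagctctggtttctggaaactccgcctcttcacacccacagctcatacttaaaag
Ifit1, which binds viral RNA, chr19:34640759-34640858, plus strand, with 2 cores: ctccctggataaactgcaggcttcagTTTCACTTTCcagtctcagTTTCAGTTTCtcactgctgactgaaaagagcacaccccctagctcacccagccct
Trim30a, the most highly expressed effector, chr7:104465194-104465343, minus strand, with 1 core: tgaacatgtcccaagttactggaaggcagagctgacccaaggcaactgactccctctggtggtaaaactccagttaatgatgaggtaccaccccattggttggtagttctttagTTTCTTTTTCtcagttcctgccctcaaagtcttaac
B2m, the light chain of MHC class I, chr2:122147537-122147676, plus strand, with 1 core and 1 ATTGG: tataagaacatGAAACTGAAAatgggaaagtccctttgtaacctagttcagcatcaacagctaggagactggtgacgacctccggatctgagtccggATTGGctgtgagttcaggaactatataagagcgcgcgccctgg
H2-K1, an MHC class I heavy chain, chr17:34000348-34000497, minus strand, with 1 ATTGG: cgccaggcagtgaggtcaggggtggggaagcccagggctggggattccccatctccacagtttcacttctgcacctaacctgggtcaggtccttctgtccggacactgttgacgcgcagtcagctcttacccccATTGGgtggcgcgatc
H2-Aa, the MHC class II alpha chain, chr17:34287824-34287973, minus strand, with 1 ATTGG: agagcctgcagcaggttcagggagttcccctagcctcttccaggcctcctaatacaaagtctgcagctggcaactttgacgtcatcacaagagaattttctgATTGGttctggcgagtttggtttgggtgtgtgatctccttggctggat

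On both strands, the ISRE core was in the 300-base windows of 12 of the 30 genes (40%), against 943 of all 27025 windows (3.49%). It was in 8 of 11 effector windows, both RNA sensor windows, 1 of 4 transcription factor windows (Stat2) and 1 of 3 MHC class I windows (B2m). The windows also reach downstream of the start, where all cores of both RNA sensors and of the effector Ifitm3 lay. They began 32 bases downstream in Ifih1, 2 in Ddx58, and 2 and 19 in Ifitm3. None of the 4 receptor, 4 peptide processing and 2 MHC class II windows held these letters. The GAS sequence TTCNNNGAA was in 8 of the 30 windows (26.7%, against 8.47% of all windows) and CCAAT in 16 (53.3%, against 37.9%). CCAAT may overlap other motifs, and so may the cores: the 3 in Isg15 share bases and began 78, 72 and 66 bases upstream of the start. These matches are descriptions of the letters in the windows. A site with other letters, in H2-K1 or elsewhere, was neither marked nor counted, so a window without a match may still hold an element. The number of cores did not order the levels: Isg15, with 3, was at 0.854 CPM per kb of exon on average over the 6 libraries, and B2m, with 1, was at 771.

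**Figure D1:**
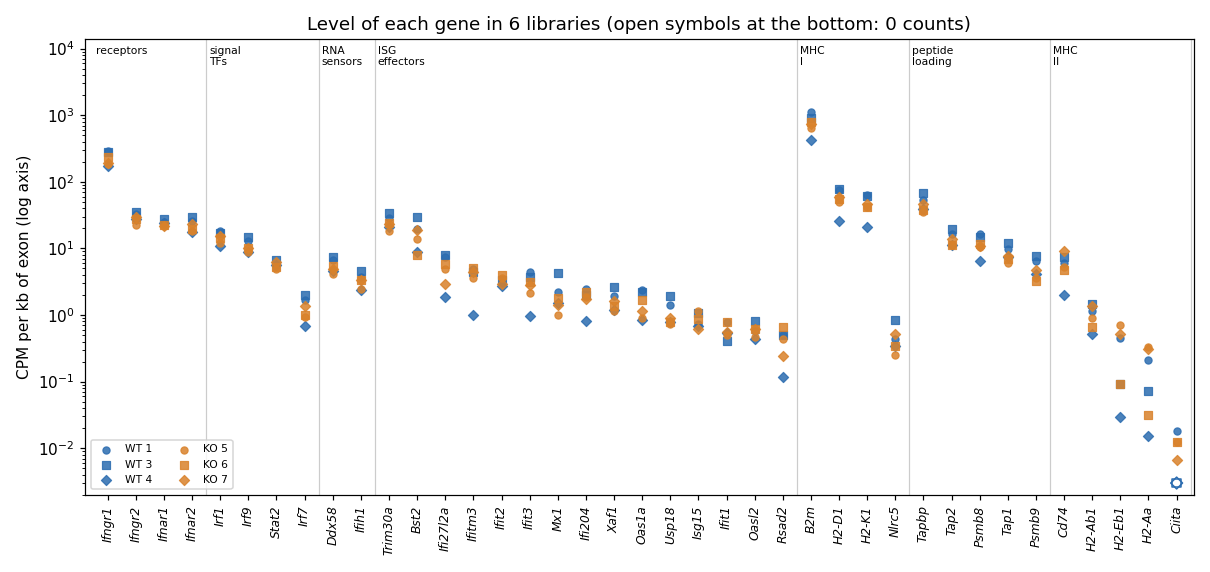
Level of each of the 39 genes in each library, in CPM per kb of exon on a log axis, grouped by role; blue symbols are wild type (WT) and orange symbols knockout (KO) libraries, and open symbols at the bottom are libraries with 0 counts. B2m is the highest gene, the effectors lie mostly under 10 CPM per kb, and Ciita is at 0 in wild type replicates 3 and 4.

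The 39 genes spanned a wide range of levels, and the receptor subunits, B2m and the class I heavy chains were expressed above most effectors. On the scale of CPM per kb of exon, averaged over all 6 libraries and ranked among tested protein-coding genes, B2m stood at percentile 99.9, Ifngr1 at 99.5, H2-D1 at 96.8, and Tapbp and H2-K1 at 95.7. At the other end Isg15 stood at percentile 16.6, Ifit1 at 12.6, Oasl2 at 12.3, Nlrc5 at 9.89, Rsad2 at 8.91, H2-Eb1 at 6.82 and H2-Aa at 2.32. In bulk RNA, fewer cells of a type and less RNA per cell cannot be told apart.

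No gene of the 39 passed the test between the groups. Of 38 that had enough counts to be tested, 0 were called by edgeR's quasi-likelihood test at an adjusted p under 0.05, against 1 of 17221 genes overall (0.00581%), and the smallest adjusted p among them was 0.637, shared by Tap1, Psmb9, Mx1 and Tapbp. DESeq2 and limma-voom called 0 as well. In direction, 29 of the 38 log2 fold changes (knockout over wild type) were negative and 9 positive, with a median of -0.21, beside a median of -0.03 and 53.7% negative over all tested genes. Scaled by library totals alone, the split was 23 negative and 15 positive, the median was -0.05 and that of all genes 0.11. Tap1 and Psmb9, both lower in knockout, had an unadjusted p under 0.05, and no gene had one with a higher level. Over all tested genes the shares with an unadjusted p under 0.05 were 2.77% lower and 4.48% higher. On the TMM scale, Ifnar1 was the only one of the 38 whose groups did not overlap, with knockout lower. Over all tested genes 6.68% were separated with knockout lower and 6.34% with knockout higher, so 1 of 38 is below that background. The 39th gene, Ciita, is described with MHC class II.

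**Figure D2:**
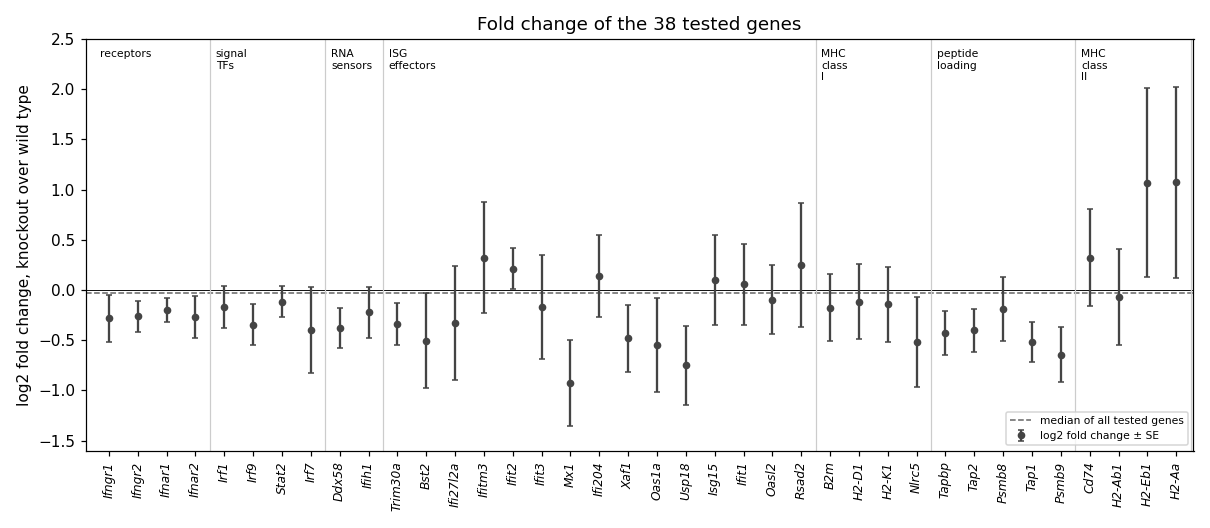
Log2 fold change of knockout over wild type for the 38 tested genes, by role; points are edgeR estimates, bars their standard errors (3 libraries a group), and the dashed line is the median of all tested genes. Most points lie between -0.6 and 0.3, and the widest bars belong to H2-Aa and H2-Eb1.

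The 4 receptor subunits were expressed in every library, and their log2 fold changes were negative, with a median of -0.26 (-0.10 under library totals). Ifnar1 (chromosome 16, 91485238 to 91507441, plus strand; positions are in GRCm38), a subunit of the type I interferon receptor, was at 146, 165 and 143 CPM in wild type (here and below in the order of replicates 1, 3 and 4) and at 129, 135 and 131 CPM in knockout (replicates 5, 6 and 7). On this TMM scale all 3 knockout values lay below all 3 wild type values, and the knockout libraries differed little among themselves. The log2 fold change of -0.20 ± 0.12 (SE, n = 3 a group; edgeR adjusted p = 0.652) had a 95% interval of 0.715 to 1.06 on the scale of the fold. Scaled by library totals alone, Ifnar1 had a log2 fold change of -0.05 and the groups overlapped. Its partner Ifnar2 was at 87.1, 97.1 and 59.5 CPM in wild type and at 59.9, 64.3 and 78.2 CPM in knockout, so the groups overlapped (log2 fold change -0.27 ± 0.21, SE; edgeR adjusted p = 0.704). By the annotation, 9.46% of the exon bases of Ifnar2 also belong to another gene on the same strand.

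Ifngr1 (chromosome 10, 19591949 to 19610229, plus strand), the ligand-binding chain of the interferon gamma receptor, was the most highly expressed receptor subunit. It was at 821, 804 and 489 CPM in wild type and at 520, 669 and 553 CPM in knockout. The lowest value was that of wild type replicate 4, so the groups overlapped (log2 fold change -0.28 ± 0.23, SE; edgeR adjusted p = 0.722). Ifngr2, the signalling chain of the same receptor, was at 124, 131 and 106 CPM in wild type and at 85.8, 103 and 112 CPM in knockout (log2 fold change -0.26 ± 0.15, SE; edgeR adjusted p = 0.650). Per kb of exon the chains were unequal: Ifngr1 averaged 226 CPM per kb and Ifngr2 averaged 29.3, while Ifnar1 and Ifnar2 were at 23.8 and 22.3.

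The interferons themselves were hardly counted. None of 13 listed ligand genes had enough counts to be tested, all 13 had at most 3 counts in every library, and 9 (among them Ifng, which encodes interferon gamma) had 0 in all 6. A count of 0 allows up to 3 counts, or 0.0937 to 0.272 CPM depending on the library, for counting error only. The ligand with the highest mean was Ifnb1, interferon beta, which had 3, 3 and 0 counts in wild type and 2, 2 and 2 in knockout.

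All 4 transcription factors had negative log2 fold changes, between -0.40 and -0.12, except that Stat2 was positive under library totals, and none passed the test. Stat2, which joins Irf9 in the complex that reads ISREs, was at 32.5, 39.9 and 33.7 CPM in wild type and at 29.1, 31.6 and 36.9 CPM in knockout, with overlapping groups. Irf9, its DNA-binding partner, was at 70.3, 81.0 and 47.6 CPM in wild type and at 47.5, 53.7 and 55.5 CPM in knockout (log2 fold change -0.34 ± 0.20, SE; edgeR adjusted p = 0.652). Irf1, an early target of interferon gamma, was at 73.2, 68.1 and 43.7 CPM in wild type and at 48.1, 56.0 and 60.5 CPM in knockout (log2 fold change -0.17 ± 0.21, SE; edgeR adjusted p = 0.810). For both, wild type replicate 4 lay within or below the knockout range. Irf7, which amplifies the type I response, was low, at 6.44, 7.43 and 2.57 CPM in wild type and at 3.52, 3.71 and 5.15 CPM in knockout (log2 fold change -0.40 ± 0.43, SE; edgeR adjusted p = 0.773).

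The RNA sensors Ddx58 (RIG-I) and Ifih1 (MDA5) start interferon production when they meet viral RNA, and both had negative log2 fold changes under every scaling tried. Ddx58 was at 46.5, 52.3 and 32.8 CPM in wild type and at 29.2, 37.9 and 34.1 CPM in knockout (log2 fold change -0.38 ± 0.20, SE; edgeR adjusted p = 0.638). Ifih1 was at 30.2, 37.5 and 19.5 CPM in wild type and at 20.2, 27.2 and 27.3 CPM in knockout (log2 fold change -0.22 ± 0.26, SE; edgeR adjusted p = 0.790). In both genes wild type replicate 4 lay within or below the knockout range.

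The 15 effectors were mostly low and divided in direction, with 9 negative and 6 positive log2 fold changes and a median of -0.17 (7, 8 and 0.0073 under library totals). Mx1 (chromosome 16, 97447035 to 97462907, minus strand) encodes a GTPase that blocks influenza-like viruses and is defective in most inbred mouse strains. It had the smallest p of the effectors. Wild type libraries held 8.28, 16.2 and 5.71 CPM, and knockout libraries 3.79, 6.71 and 5.31 CPM. The wild type mean rested on replicate 3, and the groups overlapped (log2 fold change -0.93 ± 0.43, SE; edgeR adjusted p = 0.637; 95% interval of the fold 0.263 to 1.05). The log2 fold change was -0.41 without wild type replicate 3 and -1.21 without wild type replicate 4. Usp18, which removes Isg15 from proteins and dampens receptor signalling, was at 3.93, 5.35 and 2.17 CPM in wild type and at 2.07, 2.16 and 2.53 CPM in knockout (log2 fold change -0.75 ± 0.39, SE; edgeR adjusted p = 0.638).

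Trim30a, a TRIM protein and the most highly expressed effector per kb of exon, was at 116, 140 and 84.75 CPM in wild type and at 75.2, 98.9 and 96.5 CPM in knockout (log2 fold change -0.33 ± 0.21, SE; edgeR adjusted p = 0.661). Bst2 (tetherin), which holds budding virus at the membrane, was at 17.9, 26.5 and 7.99 CPM in wild type and at 12.5, 7.07 and 17.1 CPM in knockout. Both groups spanned a wide range (log2 fold change -0.51 ± 0.47, SE; edgeR adjusted p = 0.741). Xaf1 was at 8.98, 12.5 and 5.59 CPM in wild type and at 5.40, 6.41 and 7.5 CPM in knockout, with overlapping groups.

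The IFIT family, whose proteins bind viral RNA, showed no common direction. Ifit1 was at 2.09, 1.09 and 1.43 CPM in wild type and at 1.33, 2.10 and 1.47 CPM in knockout. Ifit2 was at 12, 13.1 and 10.6 CPM in wild type and at 14.3, 15.5 and 11.6 CPM in knockout. Ifit3 was at 7.66, 6.52 and 1.71 CPM in wild type and at 3.79, 5.39 and 5 CPM in knockout. The groups overlapped in all 3 genes. Ifit3 shares 51.2% of its 50-base windows with its copy Ifit3b, so its reads could have been divided between copies and its level is uncertain.

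Isg15 had 9 to 22 counts a library, at 0.557, 0.816 and 0.514 CPM in wild type and at 0.860, 0.659 and 0.468 CPM in knockout. Rsad2 (viperin) was at 2.16, 2.17 and 0.514 CPM in wild type and at 1.88, 2.88 and 1.06 CPM in knockout. Oasl2, of the oligoadenylate synthetase family, was at 3.62, 5.26 and 2.74 CPM in wild type and at 2.97, 3.95 and 3.87 CPM in knockout. No group stood clear of the other in these genes. Oas1a, which makes the messenger that activates RNase L, was at 4.42, 4.17 and 1.6 CPM in wild type and at 1.68, 3.12 and 2.19 CPM in knockout, and 57.6% of its windows occur in Oas1g or other transcripts, so its level is uncertain as well.

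Wild type replicate 4 was the lowest library for several effectors. Ifi27l2a was at 3.41, 3.72 and 0.856 CPM in wild type and at 2.31, 2.7 and 1.37 CPM in knockout. Ifi204, a DNA sensor of the p200 family, was at 8.63, 7.16 and 2.85 CPM in wild type and at 6.53, 7.85 and 6.22 CPM in knockout. Ifitm3, which hinders virus entry at membranes, was at 3.34, 2.99 and 0.685 CPM in wild type and at 2.42, 3.42 and 2.97 CPM in knockout. In these 3 genes, as in Rsad2, that library was the lowest of the 6. Ifi204 shares 20.0% of its windows with other genes.

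MHC class I genes were among the most abundant of the 39, and their spread was wider within wild type than within knockout. B2m (chromosome 2, 122147686 to 122153083, plus strand) was at 956, 793 and 362 CPM in wild type and at 549, 683 and 636 CPM in knockout. H2-K1 (chromosome 17, 33996017 to 34000347, minus strand) was at 185, 180 and 61.2 CPM in wild type and at 123, 125 and 139 CPM in knockout. H2-D1 (chromosome 17, 35262730 to 35267499, plus strand), the other classical heavy chain of this strain, was at 195, 199 and 67.6 CPM in wild type and at 130, 145 and 152 CPM in knockout. On the TMM scale, all 3 genes had the same arrangement: 2 wild type libraries above every knockout library, and wild type replicate 4 below every one. Under library totals alone, wild type replicate 3 no longer lay above every knockout library in B2m.

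The log2 fold changes were -0.18 ± 0.34 for B2m (SE; edgeR adjusted p = 0.877), -0.14 ± 0.38 for H2-K1 (SE; edgeR adjusted p = 0.913) and -0.12 ± 0.37 for H2-D1 (SE; edgeR adjusted p = 0.928). The H2-K1 fold had a 95% interval of 0.491 to 1.67, so these libraries would not resolve a moderate change in either direction. Without wild type replicate 4 the log2 fold changes became -0.49 for B2m, -0.50 for H2-K1 and -0.47 for H2-D1 (edgeR adjusted p = 0.233, 0.166 and 0.180). They were 0.11, 0.09 and 0.09 without wild type replicate 1, so the direction rested on single wild type libraries. H2-K1 and H2-D1 were also positive under library totals (0.04 and 0.07) and with limma-voom (0.024 and 0.045).

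The heavy chains moved together from library to library. The ratio of the H2-K1 count to the H2-D1 count was between 0.861 and 0.948 in all 6. Their longest transcripts are 90.9% identical over 1056 aligned positions, and 9.63% of the H2-K1 and 12.8% of the H2-D1 windows occur in other genes, so part of this closeness could come from divided reads, which was not tested. B2m, which shares no window with another gene, had 4.40 to 5.91 times the count of H2-K1. The ratio of H2-K1 to Csf1r was 0.00812 in wild type replicate 4 and 0.0152 to 0.0185 in the other 5 libraries, so in that library H2-K1 was low also relative to a microglial transcript. Tapbp to Csf1r, by contrast, was 0.0165 to 0.0228 in all 6, and 0.0191 in wild type replicate 4. Nlrc5, the transactivator of MHC class I genes, was low, at 3.76, 7.16 and 2.91 CPM in wild type against 2.15, 2.94 and 4.44 CPM in knockout (log2 fold change -0.52 ± 0.45, SE; edgeR adjusted p = 0.728).

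The 5 genes of peptide processing and loading lie within a short stretch of chromosome 17 and had negative log2 fold changes under every scaling tried, with a median of -0.43 (-0.26 under library totals). Tap1 (34187553 to 34197225, plus strand), one chain of the pump that carries peptides into the endoplasmic reticulum, was at 53.6, 66.1 and 41.4 CPM in wild type and at 32.5, 38.2 and 41.7 CPM in knockout. The groups overlapped narrowly, at wild type replicate 4 and knockout replicate 7. The log2 fold change was -0.52 ± 0.20 (SE, n = 3 a group; edgeR unadjusted p = 0.0322, adjusted p = 0.637), with a 95% interval of the fold from 0.508 to 0.961. Leaving out wild type replicate 3 gave -0.34 (edgeR adjusted p = 1), and leaving out wild type replicate 4 gave -0.67 (edgeR adjusted p = 0.158).

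Psmb9 (34181987 to 34187764, minus strand), an inducible catalytic subunit of the immunoproteasome that is transcribed away from Tap1, was at 23.8, 28.2 and 14.9 CPM in wild type and at 13.3, 11.9 and 17.4 CPM in knockout. Knockout replicate 7 lay above wild type replicate 4, and the other knockout libraries below all wild type ones. Its log2 fold change of -0.64 ± 0.27 (SE; edgeR unadjusted p = 0.0474, adjusted p = 0.637) had a 95% interval of the fold from 0.412 to 0.993. Leaving out wild type replicate 3 gave -0.44, and leaving out wild type replicate 4 gave -0.86. The exons of Psmb9 and Tap1 overlap on opposite strands over 5.79% and 3.87% of their bases, and no source used here gives the strand setting of the counting.

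Tapbp (tapasin), which holds class I molecules at the peptide pump, was at 190, 248 and 144 CPM in wild type and at 128, 135 and 168 CPM in knockout (log2 fold change -0.43 ± 0.22, SE; edgeR adjusted p = 0.637). Tap2, the second chain of the pump, was at 63.3, 74.7 and 43.0 CPM in wild type and at 42.1, 43.2 and 51.9 CPM in knockout (log2 fold change -0.40 ± 0.21, SE; edgeR adjusted p = 0.638). In both, wild type replicates 1 and 3 were above all knockout libraries and replicate 4 was among them. Psmb8, the other inducible subunit, was at 56.2, 49.7 and 22 CPM in wild type and at 34.9, 39.7 and 37.3 CPM in knockout, which is the arrangement of the class I genes. Exons of other genes cover 29.0% of the exon bases of Tapbp, 18.5% of Tap2 and 14.7% of Psmb8, mostly or wholly on the opposite strand.

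MHC class II genes were low, and they did not move as one: 3 of 4 tested had positive log2 fold changes, and all 4 under library totals and with limma-voom. Cd74, the invariant chain that guards the class II groove, was at 10.1, 12.3 and 3.37 CPM in wild type and at 8.87, 7.85 and 15.3 CPM in knockout (log2 fold change 0.32 ± 0.49, SE; edgeR adjusted p = 0.845). H2-Ab1, the beta chain of I-A, was at 2.96, 3.72 and 1.313 CPM in wild type and at 2.31, 1.68 and 3.50 CPM in knockout (log2 fold change -0.07 ± 0.48, SE; edgeR adjusted p = 0.966). Both had their lowest value in wild type replicate 4.

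H2-Aa, the alpha chain that pairs with H2-Ab1, had 23, 3 and 1 counts in wild type and 32, 2 and 37 in knockout, or 0.8, 0.272 and 0.0571 CPM against 1.25, 0.120 and 1.16 CPM. H2-Eb1, a beta chain whose alpha partner is not functional in C57BL/6, had 25, 2 and 1 counts in wild type and 35, 3 and 32 in knockout. In both genes wild type replicate 1 and knockout replicates 5 and 7 were high and the other 3 libraries were near the limit of 3 counts, so high and low libraries occurred in both genotypes. The log2 fold changes were 1.07 ± 0.95 for H2-Aa and 1.07 ± 0.94 for H2-Eb1 (SE; edgeR adjusted p = 0.732 and 0.731), with 95% intervals of the fold from 0.452 to 9.78 and from 0.455 to 9.63. Without wild type replicate 1 that of H2-Eb1 was 2.96 (edgeR unadjusted p = 0.0313, adjusted p = 0.219). In that comparison 10.8% of all genes were higher in knockout at an unadjusted p under 0.05, and 1.85% were called in either direction.

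The 3 high libraries were also those with the largest gene counts, 28933624, 23020623 and 30544144, against 13627501 to 16685959 in the other 3. They held the least ribosomal RNA as well (0.0473%, 0.163% and 0.978%, against 1.51% to 17.5%); the part of either in the result was not tested. The ratio of H2-Ab1 to H2-Aa ran from 1.84 to 23 between libraries, whereas the ratio of H2-Aa to H2-Eb1 stayed between 0.667 and 1.5 and that of Cd74 to H2-Ab1 between 2.57 and 4.68. Ciita, the transactivator of class II genes, had 5, 0 and 0 counts in wild type and 3, 2 and 2 in knockout, too few to be tested.

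**Figure D3:**
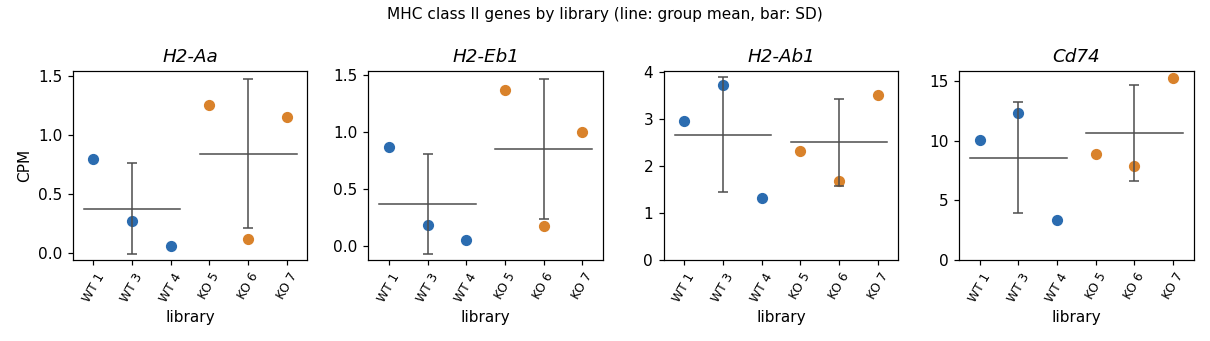
Level in CPM of 4 MHC class II genes in each library; points are libraries (blue wild type, orange knockout), horizontal lines the group means and vertical bars the SD (n = 3). H2-Aa and H2-Eb1 are high in WT 1, KO 5 and KO 7 and low in the other 3 libraries, whereas H2-Ab1 and Cd74 are lowest in WT 4.

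On the TMM scale, across the 38 tested genes, wild type replicate 3 was the highest library for 22 and wild type replicate 4 the lowest for 21. Over all tested genes these libraries were the highest in 23.6% and the lowest in 25.6%. The TMM factor of wild type replicate 3 (0.811, the lowest) raises its rank, and ranks under library totals alone were not counted. Knockout replicate 5 was the lowest for 13 (34.2%, against 19.2% of all tested genes). Wild type replicate 1 was the highest for 8 (21.1%, against 16.4% of all tested genes). The ratio of the highest to the lowest library was wider within wild type than within knockout for 34 of the 38 (89.5%), against 74.0% of all tested genes.

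Without wild type replicate 4, 35 of the 38 genes had a negative log2 fold change, with a median of -0.48 beside -0.02 for all genes. Of the 38, 22 (57.9%) were lower at an unadjusted p under 0.05, against 6.44% of all tested genes, and 0 were called (smallest adjusted p 0.158, edgeR). They included B2m, H2-K1, H2-D1, Tap1, Tap2, Tapbp, Psmb8, Psmb9, Ifngr1, Ifngr2, Irf1, Irf9 and Ddx58. Without wild type replicate 3, 0 of the 38 had an unadjusted p under 0.05, against 3.18% of all tested genes, and the median was -0.08. Leaving out wild type replicate 1 gave a median of -0.17, with 1 gene (H2-Eb1, higher) at an unadjusted p under 0.05, or 2.63% of the 38 against 18.6% of all tested genes.

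**Figure D4:**
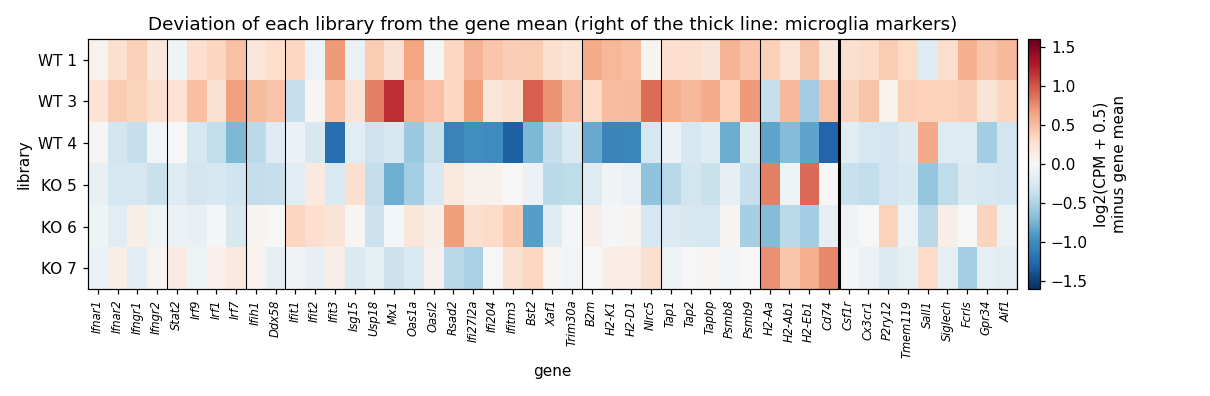
Deviation of each library from the mean of the gene, on the scale of log2(CPM + 0.5), for the 38 tested genes by role and, right of the thick line, 9 of the 10 microglia markers; red is above and blue below the mean. WT 1 and WT 3 are mostly red, WT 4 is dark blue for B2m, H2-K1, H2-D1, Cd74 and several effectors, and most of the microglia markers drawn are pale red in WT 1 and WT 3 and pale blue in WT 4. Sall1 runs the other way in WT 1 (-0.21) and WT 4 (0.60).

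Microglia markers had the same direction as most of the genes described here: all 10 had negative log2 fold changes (7 under library totals), with a median of -0.32, and 0 passed the test (smallest edgeR adjusted p 0.637). Without wild type replicate 4 their median was -0.45 and 5 of 10 were lower at an unadjusted p under 0.05, against 6.44% of all tested genes. With any other library left out, 0 or 1 of the 10 were. Markers of other brain cells had positive medians, and by edgeR none of them was called. At an unadjusted p under 0.05, 3 astrocyte, 1 oligodendrocyte, 2 endothelial or mural and 1 GABAergic marker were higher, against 4.48% of all tested genes. The 10 astrocyte markers summed to 281 to 3577 CPM in wild type, against 3491 to 6197 CPM in knockout (median log2 fold change 1.71), the 10 oligodendrocyte markers to 167 to 2411 and 2015 to 2437 CPM (1.21), and the 10 endothelial and mural markers to 56.9 to 152 and 141 to 221 CPM (0.998). The GABAergic median was 0.53. Their highest genes showed the spread within wild type: the glutamate transporters Slc1a2 and Slc1a3 ran from 124 to 2514 and from 115 to 549 CPM there, and the myelin gene Mbp from 49.5 to 1177 CPM. Of endothelial genes, Slco1c1 was at 4.28 to 28.2 CPM in wild type, against 39.7 to 113 CPM in knockout, and Pecam1 at 35.6 to 60.1 and 28.2 to 41.6 CPM. Pecam1 was the only negative one of the 9 tested endothelial and mural markers (log2 fold change -0.48), and 8 were positive. The part of cell makeup in the levels of the 39 genes was not tested.

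Other immune cells, some of which could carry class II, were represented to different degrees. The 8 markers of border-associated macrophages summed to 2047 to 2511 CPM in wild type, against 1624 to 2262 CPM in knockout. Their median log2 fold change was 0.20, with 6 positive and 2 negative. Of these, Stab1, a scavenger receptor, was at 954 to 1924 CPM over the 6 libraries. It made up most of the sums, and its log2 fold change was negative (-0.53), so the sums mainly followed 1 gene. Mrc1, the mannose receptor, was at 657, 209 and 268 CPM in wild type and at 386, 414 and 467 CPM in knockout. Of 12 lymphocyte markers, 9 had at most 3 counts in every library, among them Cd3e, Cd3d, Cd3g and Ms4a1, and Cd79a was at most at 0.514 CPM; Cd79b, at 13 to 22.97 CPM, stood alone. Of 9 monocyte and neutrophil markers, 6 had at most 3 counts in every library, while Ccr2 was at 2.10 to 8.03 CPM and Plac8 at 0.352 to 1.20 CPM. Of the 7 dendritic cell markers, Zbtb46 was at 12.1 to 17.2 CPM and Flt3 at 0.4 to 1.32 CPM. Of the 7, 2 had at most 3 counts in every library. Cd209a, Xcr1 and Ccr9, named after their values were seen, were too low to be tested. Cd209a had 5, 3 and 1 counts in wild type and 10, 0 and 16 in knockout. Xcr1 had 6, 3 and 1 against 3, 3 and 8, and Ccr9 had 6, 0 and 3 against 6, 2 and 4.

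A wider list of 141 other interferon and antigen presentation genes showed the same direction. Of 112 tested, 97 log2 fold changes were negative and 15 positive, with a median of -0.24. Under library totals the split was 75 and 37. By edgeR 0 were called, and 5 of the 112 had an unadjusted p under 0.05, all lower in knockout. Over all tested genes the shares with an unadjusted p under 0.05 were 2.77% lower and 4.48% higher. On the TMM scale, groups did not overlap for 11, all with knockout lower (9.82% of 112, against 6.68% of all tested genes). Among other interferon-stimulated genes, Irgm2, a GTPase that acts on vacuoles of microbes, was at 76.0, 78.3 and 67.0 CPM in wild type and at 45.8, 52.8 and 58.8 CPM in knockout. The groups did not overlap (log2 fold change -0.49 ± 0.14, SE; edgeR unadjusted p = 0.00984, adjusted p = 0.637). Tyk2, a kinase bound to Ifnar1, was at 103, 137 and 111 CPM in wild type and at 80.2, 87.5 and 99.8 CPM in knockout, also without overlap on the TMM scale (log2 fold change -0.39 ± 0.16, SE; edgeR adjusted p = 0.637).

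Zbp1, a sensor of Z-form nucleic acid, was at 1.08, 2.45 and 4.22 CPM in wild type and at 0.899, 0.599 and 0.906 CPM in knockout (log2 fold change -1.66 ± 0.55, SE; edgeR adjusted p = 0.637). Unlike the class I genes it was highest in wild type replicate 4. H2-T24, a nonclassical class I gene, was at 55.5, 79.7 and 51.8 CPM in wild type and at 37.8, 49.7 and 48.8 CPM in knockout (log2 fold change -0.45 ± 0.20, SE; edgeR adjusted p = 0.637). Cd80, a costimulatory ligand listed with class II, was at 11.7, 13.8 and 11.8 CPM in wild type and at 7.94, 9.29 and 10.1 CPM in knockout (log2 fold change -0.44 ± 0.20, SE; edgeR adjusted p = 0.637). Chosen after their values were seen, the class II companions Ctss, a protease that trims the invariant chain, and Lgmn, an endosomal protease, were at 1420 to 3651 and 2354 to 3739 CPM, far above the class II chains themselves. H2-DMa, which helps exchange class II peptides, was at 28.9 to 60.2 CPM.

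Ifi207, a gene of the p200 family also chosen after its values were seen, was called in 1 setting: without wild type replicate 1 its log2 fold change was 1.29 (edgeR adjusted p = 0.0419). With all libraries it was at 23.9, 5.98 and 5.99 CPM in wild type and at 13.6, 14.9 and 15.5 CPM in knockout (log2 fold change 0.28 ± 0.53, SE; edgeR adjusted p = 0.877), so the call rested on the left-out library.

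**Figure D5:**
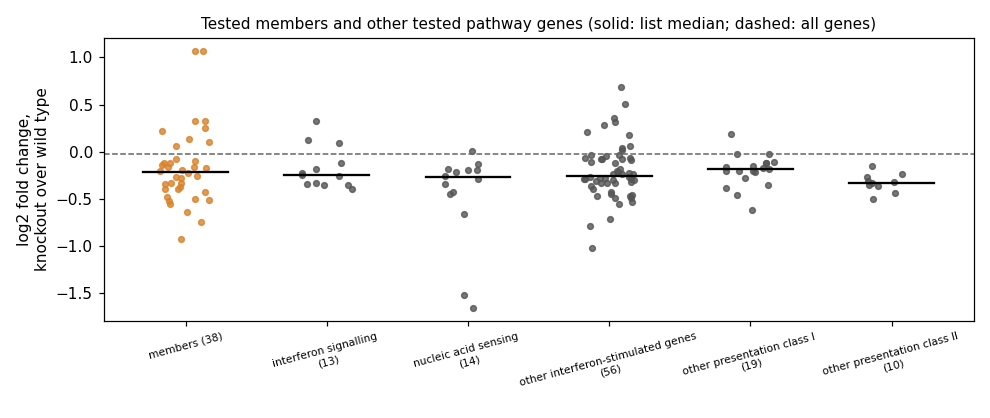
Log2 fold change of knockout over wild type for the 38 tested genes (orange) and for 112 other tested pathway genes (grey) by list, with the number of genes in brackets; solid bars are list medians and the dashed line is the median of all tested genes. The median of the 38 genes pooled and that of each other list drawn lie below the dashed line, and no gene passed the adjusted threshold.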

How the data were processed

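The authors deposited raw counts per gene for each of 6 libraries. Per the submitters' processing notes, Trim Galore 0.60, STAR 2.7, HTSeq 1.31 and genome build mm10 were used. No source used here gives the strand setting of the counting or the annotation version. HTSeq's 5 summary lines were left out of library sizes; reads outside any gene were 40.0% to 58.2% of all counted reads, and ambiguous ones 1.94% to 14.5%. Every file lists 0 reads with several alignments, so genes with close copies are uncertain. Gene names, positions (1-based, GRCm38) and exon lengths came from GENCODE M21, matched by ID without version (53274 of 53379).

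Genes were filtered with filterByExpr and tested with edgeR 4.0.16 (TMM scaling, robust quasi-likelihood F-test, two-sided, Benjamini-Hochberg adjustment over all 17221 tested genes, threshold 0.05) in R 4.3.3. The script was tested on simulated data. CPM uses TMM-scaled library sizes, and levels between genes are compared per kb of exon. Libraries of a group differed by more than sampling noise, so none was treated as a duplicate deposit of another; whether they came from separate animals was not tested. Shared sequence was counted as 50-base windows found in transcripts of another gene. Alternatives used DESeq2 1.42.0, limma 3.58.1, other scalings and filters, and single libraries left out. The genes and lists were chosen with earlier results of these data known. Levels are given for every listed gene; fold changes for the 3 with the smallest p and the 2 with the highest level per kb in each role; and in other lists for the gene with the smallest p, or the 2 highest markers. Some marker genes that this rule names are not reported here.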

Additional observations from a re-analysis of the deposited data

How the results depend on the processing

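No gene of the 39 was called in either direction under any of the 14 alternatives, and no other pathway gene was called except Ifi207 (1 gene higher without wild type replicate 1; 0 to 1 over the libraries left out). The count with an unadjusted p under 0.05 was 2 with all libraries (5.26%, against 7.25% of all tested genes). It was 3 with the DESeq2 test (7.89% against 9.17%) and with no filter on low counts (7.69% against 5.85%). It was 1 with DESeq2 size factors (2.63% against 7.12%) and with limma-voom (2.63% against 8.62%). Without ribosomal, small, haemoglobin and mitochondrial RNA it was also 1 (2.63% against 7.17%). It was 0 with library totals alone (against 5.77%). With single libraries left out it was 0 to 22 (up to 57.9%, against 1.75% to 18.6%). Over all genes, calls were 15 higher and 6 lower with DESeq2, 4 and 1 with no filter on low counts, 0 higher among protein-coding genes alone, and 1 to 306 higher and 0 to 15 lower with single libraries left out. The median log2 fold change of the tested genes kept its sign, from -0.48 to -0.08 over the libraries left out. Of 418 log2 fold changes of named genes under an alternative, 401 kept their direction and 17, of 6 genes, reversed. H2-K1, H2-D1 and H2-Ab1 were at 0.043, 0.072 and 0.12 with library totals and at 0.024, 0.045 and 0.039 with limma-voom. Over the libraries left out, Ifih1 ran from -0.44 to 0.0062, B2m from -0.49 to 0.11, H2-K1 from -0.50 to 0.094, H2-D1 from -0.47 to 0.12, Cd74 from -0.056 to 0.67 and H2-Ab1 from -0.39 to 0.23; the cause was not tested. No paired analysis was possible because the groups share no replicate number. Levels at or under 3 counts (H2-Aa and H2-Eb1 in 3 libraries, Ciita in 5, and the interferon genes in all 6) were not resolved at this depth.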
